A study of Mus musculus with 14 samples.

Results

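The genes described here are 9 members of the complement system other than the C1q chains, in ventricular heart tissue of mice with and without Ccl24. They were found by symbol in the table of raw counts, where all 9 were among its 54532 genes, and all 9 passed the filter on low counts that left 15876 genes for testing. They were C1ra and C1s1 (proteases of the first component), Serping1 (their inhibitor), C4b and C3 (central components), Cfd (a protease of the alternative pathway), C7 (a terminal component), and C3ar1 and C5ar1 (receptors for the fragments C3a and C5a). The hearts were collected 1 week after transverse aortic constriction (TAC), which narrows the aorta and loads the left ventricle, or after a sham operation. The 4 groups were CCL24 KO mice after TAC (KO TAC, n = 4), CCL24 KO mice after sham surgery (KO sham, n = 2), wild type mice after TAC (WT TAC, n = 6) and wild type mice after sham surgery (WT sham, n = 2). The sources used here do not state age, sex or strain background, or how the Ccl24 deletion was made.

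Complement is a cascade of plasma and tissue proteins in which C1s, or a related protease, cleaves C4 and C2 to form an enzyme that cleaves C3. Factor D and factor B build a second such enzyme in the alternative pathway, C5 is cleaved next, and C6 to C9 assemble into a pore in the target membrane. Many of these proteins are made in the liver, but fibroblasts and macrophages of other tissues transcribe several of them, and C3a and C5a act on myeloid cells through their receptors.

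The 14 libraries held 17072262 to 33123052 counts each, so that 3 counts stood for 0.0906 to 0.176 CPM (counts scaled to the size of a library, here with TMM factors). Ccl24 had 3 to 8 counts in the 6 KO libraries and 56 to 105 in 7 of the 8 WT libraries. The library labelled WT TAC replicate 1 held 3 Ccl24 counts, which goes against its label. The pairwise comparisons of the 9 genes that use it are therefore also given without it. The correlations and the percentages of marker sums further on include it. Cardiomyocyte markers summed to 47830 to 56260 CPM in KO TAC, 60480 to 61500 in KO sham, 38390 to 51960 in WT TAC and 53500 to 55510 in WT sham, so that TAC lay below sham in each genotype without overlap. Atrial markers reached at most 12.9 CPM and hepatocyte markers at most 13.2 CPM. Mitochondrially encoded genes took 14.9 to 19.2% of counts in KO TAC, 20.5 to 23.6% in KO sham, 10.1 to 17.1% in WT TAC and 18.5 to 18.8% in WT sham.

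After TAC, 4 of the 9 genes were lower in KO hearts than in WT hearts and none was higher (edgeR adjusted p under 0.05 over all genes). They were C7, Serping1, C1ra and C3ar1, with 0.443 to 0.643 times the WT level. Among all 15876 genes, 9.34% passed in this comparison and 5.63% passed as lower. Without the library labelled WT TAC replicate 1 these 4 genes passed again and no other member did, where 18.5% of all genes did. The median log2 fold change was -0.43 over the 9 genes and -0.01 over all genes.

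After TAC in WT hearts, C4b and C3ar1 rose against sham and C7 fell, which makes 3 of the 9 genes. Of all genes, 12.2% passed in this comparison, 6.36% as higher and 5.8% as lower. Without the library labelled WT TAC replicate 1, 5 of the 9 passed, C1ra and Serping1 being added as higher, where 17.4% of all genes passed. The median log2 fold change was 0.44 over the 9 genes and 0.01 over all genes.

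In KO hearts only C7 passed between TAC and sham, as lower, which makes 1 of the 9 genes. Among all genes 4.08% passed and 1.73% passed as lower. The median log2 fold change was -0.21 over the 9 genes and -0.01 over all genes. Both TAC against sham in WT and KO against WT after TAC use the WT TAC libraries, so their results are not independent of each other.

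Between the sham groups none of the 9 genes passed in edgeR, where 0.126% of all genes did. At an unadjusted p under 0.05 there were 3, namely C7, C4b and C3, against 1799 of all 15876 genes. DESeq2 called 1 of the 9 and 147 of all 15257 genes it tested. For limma voom with sample weights this was 2 of the 9 and 705 of 15876. On the sham libraries alone, edgeR called 3 of the 8 members then tested and 1158 of 14751 genes. These calls are given under each gene. In the genotype by surgery interaction, which asks whether the effect of TAC differs between KO and WT, edgeR called none of the 9 and 0.0% of all genes, of which 647 had an unadjusted p under 0.05. Over all genes DESeq2 called 6 and limma voom 5, none of them a member. All 9 interaction estimates were negative, from -0.27 for C7 to -1.53 for Cfd. Their median was -0.60, and that of all genes was -0.01. An unadjusted p under 0.05 was reached by 4, namely C4b, C1ra, C1s1 and Serping1. The edgeR adjusted p was 0.997 for each of the 9. Without the library labelled WT TAC replicate 1, these 4 and C3ar1 (edgeR unadjusted p = 0.023) had an unadjusted p under 0.05. In that fit 950 of all 15880 genes did, and 3 passed after adjustment, none of them a member.

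**Figure D1:**
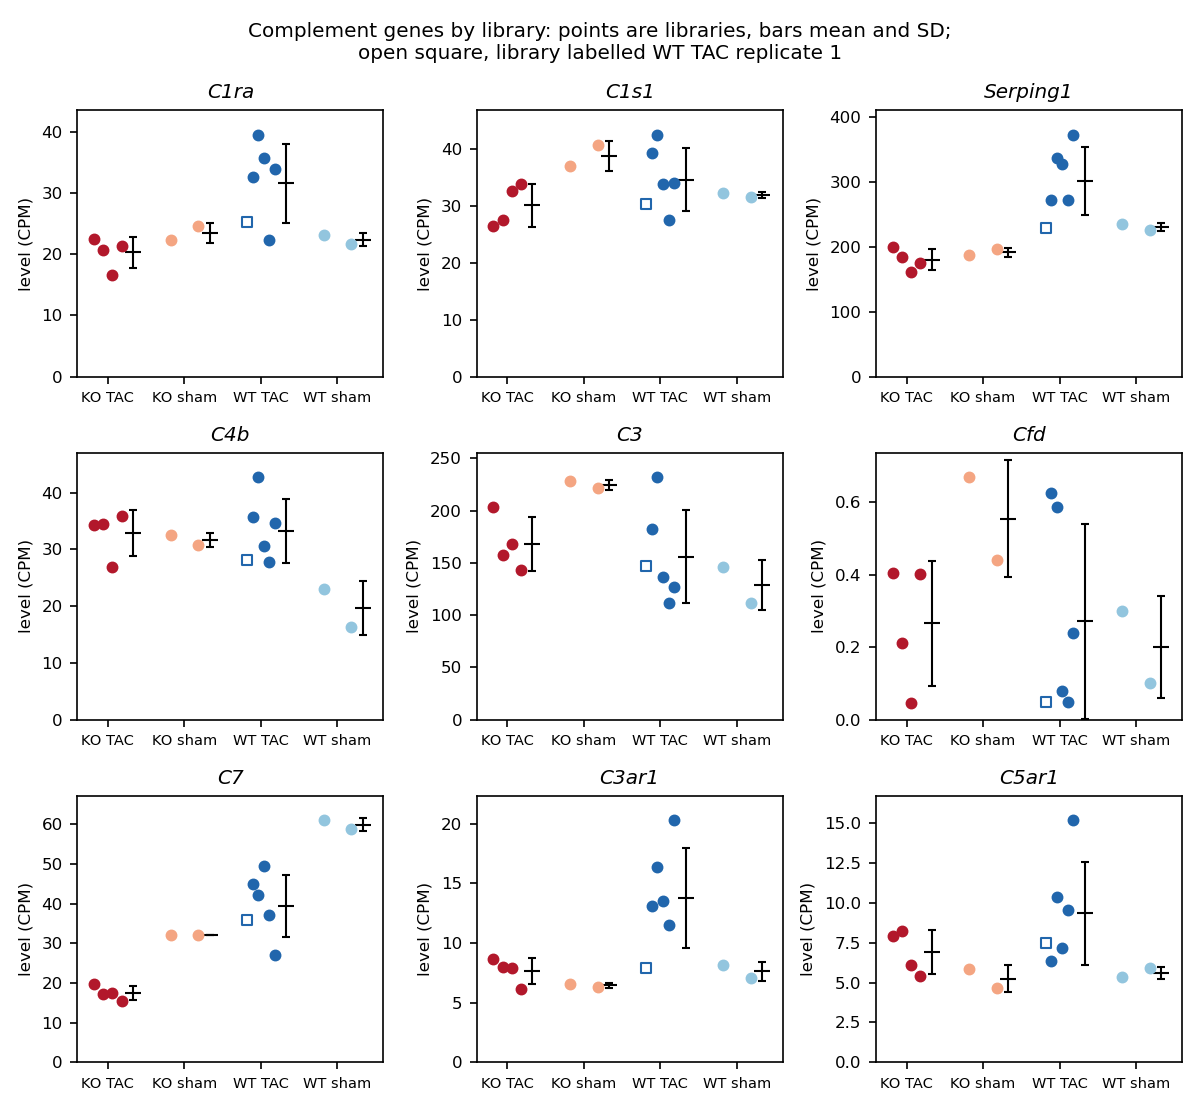
Level of each gene (vertical axis, CPM, from 0) in each library of the 4 groups (horizontal axis); points are libraries, black bars the mean and SD, and the open square is the library labelled WT TAC replicate 1. The C7 points of KO TAC lie between 15.4 and 19.7 CPM, below those of every other group, and the Serping1 points of KO TAC and KO sham lie below all WT points.

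**Figure D2:**
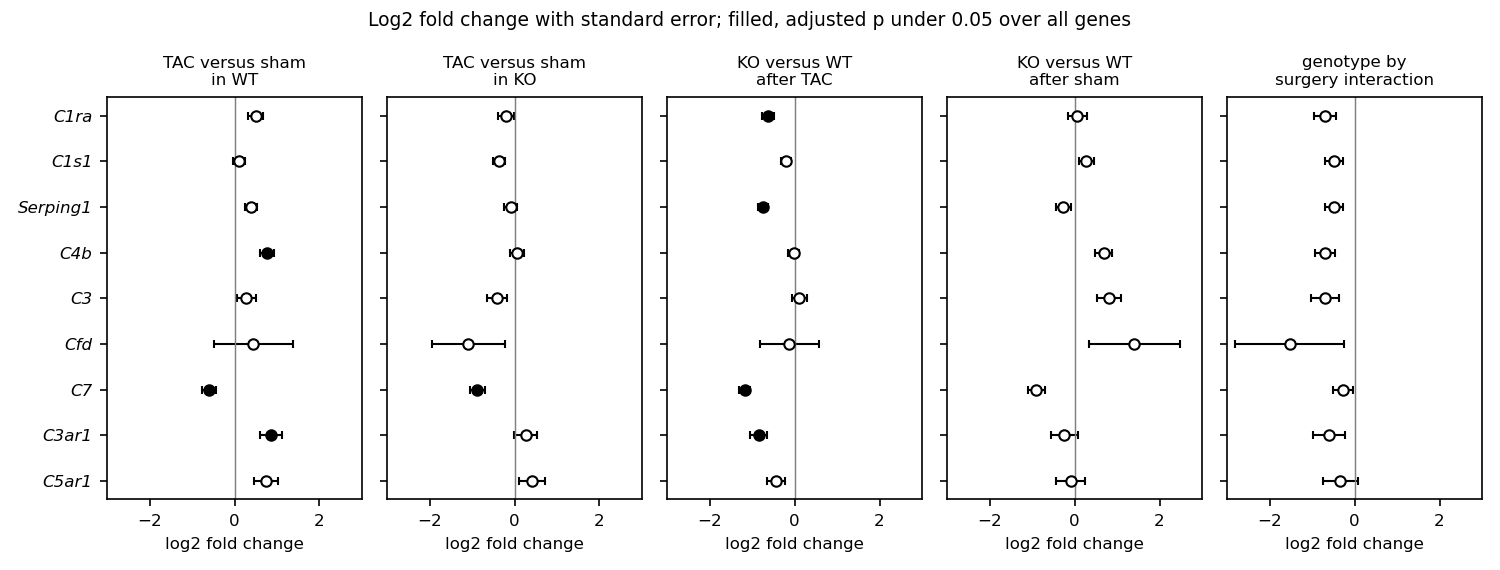
Log2 fold change (horizontal axis) with its standard error for each gene (vertical axis) in the 4 pairwise comparisons and the interaction; filled points have an edgeR adjusted p under 0.05 over all genes. C7 lies left of 0 in all 4 pairwise comparisons, and Cfd has the widest bars, from a standard error of 0.70 to 1.28.

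Per kilobase of exon, the mean level over the 14 libraries was highest for Serping1, at 103.9 CPM per kb (range 69.7 to 160.7). C3 followed at 32.1 (21.6 to 45.1), C7 at 13.1 (5.75 to 22.8), C1s1 at 10.7 (8.43 to 13.6), C1ra at 8.68 (5.59 to 13.3) and C4b at 5.44 (2.86 to 7.50) CPM per kb. The receptors C5ar1 and C3ar1 were low, at 2.93 (1.81 to 5.90) and 2.35 (1.43 to 4.71) CPM per kb, and Cfd was lowest at 0.325 (0.0479 to 0.724) CPM per kb. The ranges of Serping1 and C3 did not overlap, nor did those of C3ar1 and Cfd, while every other pair of neighbours in this order overlapped.

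C1ra and C1s1 encode the serine proteases that, bound to C1q, start the classical pathway, and they lie side by side on chromosome 6 of GRCm38, C1ra at chr6:124512405-124523443 on the plus strand and C1s1 at chr6:124530345-124542359 on the minus strand. Each has a close copy nearby. Of all 50-base stretches of their annotated transcripts, 50.8% of C1ra also occurred in C1rb or in the gene Gm18840, and 21.8% of C1s1 also occurred in C1s2, so their counts are uncertain to the degree that the counting split such reads.

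C1ra had 22.5, 20.7, 16.7 and 21.4 CPM in KO TAC, 22.2 and 24.6 in KO sham, a lowest, median and highest of 22.3, 33.2 and 39.5 in WT TAC, and 23.1 and 21.7 in WT sham. The KO TAC values lay below those of WT TAC with the exception of an overlap between KO TAC replicate 1 and WT TAC replicate 6. After TAC, C1ra was lower in KO than in WT by a log2 fold change of -0.64 (SE 0.14, edgeR adjusted p = 0.015), which is 0.643 times the WT level. It was -0.69 (SE 0.14, edgeR adjusted p = 0.0038) without the library labelled WT TAC replicate 1. The call was lost without KO TAC replicate 4 or 5, at an edgeR adjusted p of 0.057 and 0.051. It was also lost with the replicate number as a block (-0.64, SE 0.15, edgeR adjusted p = 0.13).

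Against sham, C1ra in WT TAC differed by a log2 fold change of 0.50 (SE 0.18, edgeR adjusted p = 0.082), which passed without the library labelled WT TAC replicate 1 (0.55, adjusted p = 0.040) or without WT TAC replicate 6 (0.56, adjusted p = 0.034). In KO the difference was -0.21 (SE 0.19, adjusted p = 0.57), and between the sham groups it was 0.07 (SE 0.22, adjusted p = 0.95). The copy C1rb, named here because it shares sequence with C1ra, averaged 4.37 ± 0.244 CPM in KO TAC (SD, n = 4) and 4.99 ± 1.08 CPM in WT TAC (SD, n = 6), with a log2 fold change of -0.20 (SE 0.16) that did not pass.

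C1s1 passed in none of the comparisons. It had 26.4, 27.4, 32.5 and 33.9 CPM in KO TAC, 36.9 and 40.5 in KO sham, a lowest, median and highest of 27.6, 33.8 and 42.5 in WT TAC, and 32.3 and 31.5 in WT sham. The KO TAC and WT TAC ranges overlapped, whereas both KO sham libraries lay above all KO TAC and both WT sham libraries. The KO minus WT difference after TAC was -0.20 on the log2 scale (95% interval -0.42 to 0.02 from its SE), and that of TAC against sham in KO was -0.37 (-0.66 to -0.08), at an edgeR adjusted p of 0.16. Leaving out the library labelled WT TAC replicate 1 gave -0.24 for KO against WT after TAC (edgeR adjusted p = 0.15) and 0.15 for TAC against sham in WT (adjusted p = 0.48).

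Serping1 encodes the C1 inhibitor, a serpin that inactivates C1r and C1s as well as kallikrein, and it lies at chr2:84765387-84775444 on the minus strand. It had 200.0, 184.6, 162.1 and 175.3 CPM in KO TAC, 187 and 197 in KO sham, a lowest, median and highest of 229.6, 300.2 and 373.6 in WT TAC, and 236 and 226 in WT sham. All 6 KO libraries lay below all 8 WT libraries, the nearest being KO TAC replicate 1 and WT sham replicate 2. After TAC, Serping1 was lower in KO by a log2 fold change of -0.74 (SE 0.12, edgeR adjusted p = 0.0027), 0.597 times the WT level. Without the library labelled WT TAC replicate 1 the log2 fold change was -0.81 (SE 0.10, edgeR adjusted p = 0.00015). This call held in each of 14 fits that left out 1 library, with an adjusted p of at most 0.017. It was lost with the replicate number as a block (-0.59, SE 0.14, edgeR adjusted p = 0.12).

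Between the sham groups the Serping1 difference was smaller, at -0.27 (SE 0.18, edgeR adjusted p = 0.62). TAC against sham gave -0.09 (SE 0.15, adjusted p = 0.79) in KO and 0.39 (SE 0.15, adjusted p = 0.096) in WT. The WT difference passed without the library labelled WT TAC replicate 1 (0.46, SE 0.13, adjusted p = 0.024), whose 229.6 CPM was the lowest of WT TAC and within the range of WT sham.

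C4b encodes the complement component C4, whose larger fragment binds to target surfaces and forms part of the enzyme that cleaves C3, and it lies at chr17:34728380-34743882 on the minus strand. Its copy C4a shares 34.6% of its 50-base stretches, so part of its counts is uncertain, but C4a itself had only 17 to 44 counts per library, against 321 to 1164 for C4b. C4b had 34.3, 34.5, 26.9 and 35.9 CPM in KO TAC, 32.6 and 30.7 in KO sham, a lowest, median and highest of 27.8, 32.6 and 42.7 in WT TAC, and 23.0 and 16.3 in WT sham. The WT sham libraries stood below the libraries of all other groups, which overlapped with each other.

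In WT, C4b was higher after TAC than after sham by a log2 fold change of 0.76 (SE 0.17, edgeR adjusted p = 0.015), 1.69 times the sham level, and by 0.80 (SE 0.17, adjusted p = 0.0083) without the library labelled WT TAC replicate 1. The call rested on both WT sham libraries and was lost without replicate 1 (1.04, adjusted p = 0.098) or replicate 2 (0.54, adjusted p = 0.24). In KO the difference was 0.06 (95% interval -0.28 to 0.39, adjusted p = 0.90), and KO against WT after TAC gave -0.02 (-0.27 to 0.23, adjusted p = 0.94), or -0.06 (adjusted p = 0.77) without that library. KO sham exceeded WT sham by 0.69 (SE 0.20, adjusted p = 0.25), which passed when the 4 sham libraries were fitted alone (0.69, adjusted p = 0.012). The interaction estimate was -0.71 (SE 0.24, unadjusted p = 0.0096), or -0.75 (SE 0.23, unadjusted p = 0.0061) without the library labelled WT TAC replicate 1.

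C3 encodes the protein on which all activation routes converge, and it lies at chr17:57203970-57228136 on the minus strand. Its promoter is shown because C3 is the most abundant of the activating components per kilobase. The 250 bases before the RefSeq start, chr17:57228137-57228386 of GRCm38.p6 on the minus strand, are printed 5′ to 3′ with a C/EBP motif (TTGCNNAA on either strand) in capitals, which starts 45 bases before the start.
C3 promoter: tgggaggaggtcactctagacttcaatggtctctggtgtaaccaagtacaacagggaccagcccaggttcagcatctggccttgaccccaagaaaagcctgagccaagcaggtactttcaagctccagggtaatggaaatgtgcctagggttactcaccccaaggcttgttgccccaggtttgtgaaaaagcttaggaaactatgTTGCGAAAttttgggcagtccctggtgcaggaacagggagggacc

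C3 had 204, 157, 168 and 143 CPM in KO TAC, 228 and 221 in KO sham, a lowest, median and highest of 111, 142 and 232 in WT TAC, and 146 and 111 in WT sham. KO TAC and WT TAC overlapped widely, and the KO sham libraries stood above all KO TAC and all WT sham libraries. No comparison passed for C3 in edgeR across the 14 libraries. After TAC the KO minus WT difference was 0.11 (95% interval -0.24 to 0.46, edgeR adjusted p = 0.72). TAC against sham gave -0.42 (SE 0.24, adjusted p = 0.33) in KO and 0.28 (SE 0.23, adjusted p = 0.44) in WT. Leaving out the library labelled WT TAC replicate 1 gave 0.09 for KO against WT after TAC (edgeR adjusted p = 0.78) and 0.30 for TAC against sham in WT (adjusted p = 0.43).

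Between the sham groups C3 differed by 0.80 (SE 0.28, edgeR adjusted p = 0.30). That difference passed in edgeR on the sham libraries alone (0.81, adjusted p = 0.0019) and in limma voom (0.81, adjusted p = 0.046). With 2 libraries in each sham group, the first edgeR fit and limma voom estimated the spread over all 14 libraries. The edgeR fit of the sham libraries alone estimated it over those 4.

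Cfd encodes factor D (adipsin), which cleaves factor B and is known as a product of fat cells, and it lies at chr10:79890853-79892655 on the plus strand. It was barely detected, with 9, 6, 1 and 7 counts in KO TAC, 13 and 9 in KO sham, a range of 1 to 17 in WT TAC and 7 and 2 in WT sham. The groups could not be told apart at this depth, the standard errors of the log2 fold changes being 0.70 to 1.07 in the pairwise comparisons, and no comparison passed with or without the library labelled WT TAC replicate 1. Of 10 adipocyte markers 9 were in the table and 2 passed the filter, and Cidea, which made up 89.8 to 96.7% of their summed level in each group, is the most abundant of them.

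C7 encodes a component of the membrane attack complex that inserts into the membrane after binding the C5b and C6 complex, and it lies at chr15:4988762-5063740 on the minus strand. In KO against WT after TAC it had the smallest adjusted p of the 9 genes. Its promoter and, further on, that of C3ar1 are shown as those of 2 genes that were lower in KO TAC. The C7 window in RefSeq is chr15:5063774-5064023 on the minus strand, with a STAT motif (TTCNNNGAA) that starts 164 bases before the start and a reverse TATA box (TATAAA on the other strand) 6 bases before it in capitals.
C7 promoter: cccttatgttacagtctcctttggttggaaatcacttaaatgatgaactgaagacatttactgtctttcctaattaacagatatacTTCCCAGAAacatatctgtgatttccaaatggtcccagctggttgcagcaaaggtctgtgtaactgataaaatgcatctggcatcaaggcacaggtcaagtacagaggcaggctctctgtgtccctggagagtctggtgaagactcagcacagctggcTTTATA

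C7 had 19.7, 17.2, 17.4 and 15.4 CPM in KO TAC, 32.0 and 32.1 in KO sham, a lowest, median and highest of 26.9, 39.6 and 49.5 in WT TAC, and 61.0 and 58.8 in WT sham. The 4 KO TAC libraries lay below all 10 others, and the 2 WT sham libraries lay above all 12 others. The ranges of KO sham and WT TAC overlapped, because WT TAC replicate 7 was at 26.9 CPM.

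After TAC, C7 in KO was lower than in WT by a log2 fold change of -1.17 (SE 0.14, edgeR adjusted p = 0.00051), 0.443 times the WT level. Without the library labelled WT TAC replicate 1 the log2 fold change was -1.20 (SE 0.14, edgeR adjusted p = 0.00015), and it passed in all 22 alternative fits. After sham surgery it was lower in KO by a similar estimate, -0.90 (SE 0.20), but this did not pass (edgeR adjusted p = 0.10, unadjusted p = 0.00040). DESeq2 gave -0.91 (adjusted p = 0.0064) and limma voom -0.90 (adjusted p = 0.0020) for the sham groups, the sham libraries alone gave -0.90 (edgeR adjusted p = 0.00011), and it passed without WT TAC replicate 7 (-0.92, adjusted p = 0.0080).

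C7 fell after TAC in both genotypes, to 0.545 times the sham level in KO (-0.88, SE 0.17, edgeR adjusted p = 0.012) and 0.658 times in WT (-0.60, SE 0.16, adjusted p = 0.025). In WT the estimate was -0.58 (SE 0.16, edgeR adjusted p = 0.027) without the library labelled WT TAC replicate 1. Each call depended on both sham libraries of its genotype. In KO it was lost without KO sham replicate 1 or 2 (adjusted p = 0.21 and 0.076), and in WT without WT sham replicate 1 or 2 (adjusted p = 0.20 in both). The interaction was -0.27 (95% interval -0.74 to 0.20, unadjusted p = 0.27), or -0.30 (unadjusted p = 0.25) without the library labelled WT TAC replicate 1. A difference in the effect of TAC between the genotypes was thus not detected for C7.

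C3ar1 and C5ar1 encode G protein-coupled receptors for C3a and C5a, found mainly on macrophages, monocytes and neutrophils. C3ar1 lies at chr6:122847138-122856161 and C5ar1 at chr7:16246743-16259540, both on the minus strand. The C3ar1 promoter, chr6:122856158-122856407 on the minus strand, holds an AP-1 motif (TGANTCA) that starts 22 bases before the start and a TATA box motif 235 bases before it, in capitals.
C3ar1 promoter: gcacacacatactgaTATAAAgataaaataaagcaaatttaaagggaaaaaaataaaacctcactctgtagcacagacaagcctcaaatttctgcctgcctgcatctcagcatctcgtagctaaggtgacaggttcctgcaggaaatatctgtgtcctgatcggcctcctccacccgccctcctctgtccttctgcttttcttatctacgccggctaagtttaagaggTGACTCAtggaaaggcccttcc

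Each motif was searched on both strands in the 250 bases before every RefSeq start outside chromosome 18, and none of the capitalised matches overlap. Among 32851 such promoters 6.75% held the AP-1 motif, 7.02% the STAT motif, 9.56% the C/EBP motif, 12.4% the TATA box and 33.8% a CCAAT box. None of the 5 motifs occurred in the windows of Cfd and C1ra. Of the C1s1 windows, chr6:124542360-124542609 held a C/EBP motif and chr6:124542322-124542571 held none of the motifs. C5ar1 held a CCAAT box. A match is a run of letters and shows no binding.

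C3ar1 had 8.67, 7.97, 7.95 and 6.15 CPM in KO TAC, 6.58 and 6.32 in KO sham, a lowest, median and highest of 7.91, 13.3 and 20.3 in WT TAC, and 8.19 and 7.05 in WT sham. The lowest WT TAC value was that of the library labelled WT TAC replicate 1, and the other 5, from 11.5 CPM upwards, lay above the libraries of every other group. After TAC, C3ar1 was lower in KO by a log2 fold change of -0.84 (SE 0.20, edgeR adjusted p = 0.021), 0.558 times the WT level. Without that library the log2 fold change was -0.96 (SE 0.16, edgeR adjusted p = 0.0010). The call was lost without KO TAC replicate 2, 4 or 5 (adjusted p = 0.056, 0.059 and 0.083). It was also lost with the replicate number as a block (-0.48, SE 0.19, edgeR adjusted p = 0.38).

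In WT, C3ar1 rose after TAC by a log2 fold change of 0.86 (SE 0.26, edgeR adjusted p = 0.045), 1.81 times the sham level, and by 0.97 (SE 0.20, adjusted p = 0.0072) without the library labelled WT TAC replicate 1. It lay close to the threshold, since 10 of the 14 fits that left out 1 library did not call it, with an adjusted p of up to 0.32 without WT sham replicate 2. In KO the difference was 0.26 (SE 0.28, adjusted p = 0.64), and between the sham groups -0.24 (SE 0.32, adjusted p = 0.83).

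C5ar1 had 7.91, 8.22, 6.10 and 5.40 CPM in KO TAC, 5.86 and 4.65 in KO sham, a lowest, median and highest of 6.32, 8.51 and 15.2 in WT TAC, and 5.33 and 5.88 in WT sham. All 6 WT TAC libraries lay above both WT sham libraries, and they overlapped with KO TAC. No edgeR test passed for C5ar1. The nearest was TAC against sham in WT, at 0.74 (SE 0.29, edgeR adjusted p = 0.099), which passed in limma voom (0.62, adjusted p = 0.023). KO against WT after TAC gave -0.43 (SE 0.22, edgeR adjusted p = 0.20). Leaving out the library labelled WT TAC replicate 1 gave 0.80 (edgeR adjusted p = 0.075) and -0.49 (adjusted p = 0.14) in these 2 comparisons.

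**Figure D3:**
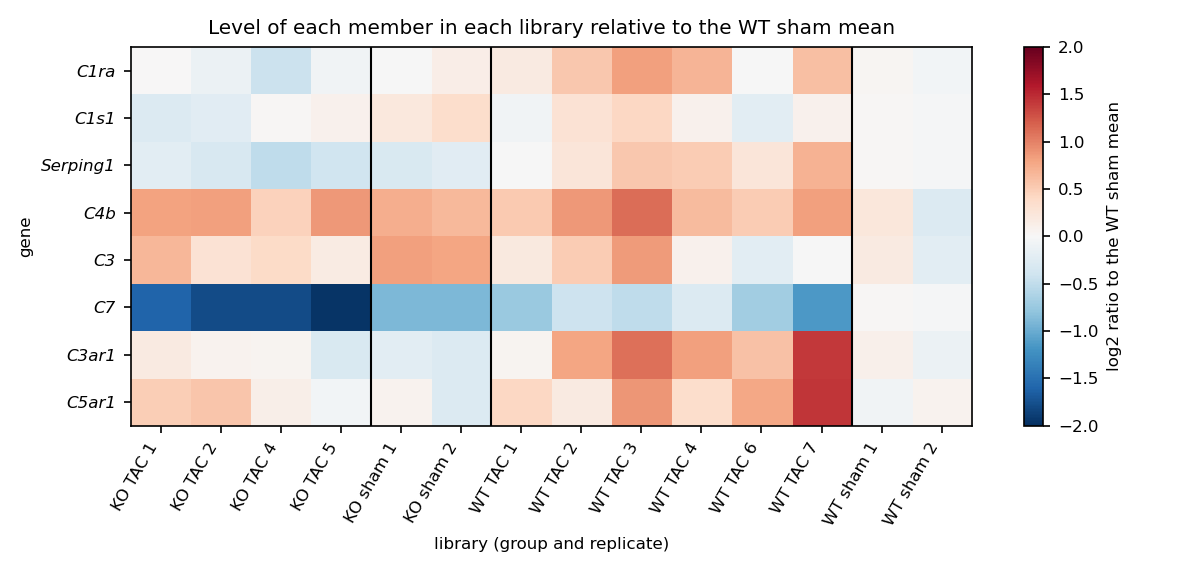
Log2 ratio of the level of each gene to its WT sham mean (colour, red higher and blue lower, from -2 to 2) in each library (horizontal axis, group and replicate); Cfd is left out for its low counts. C7 is blue in the 12 libraries of the other 3 groups, and C3ar1 and C5ar1 are deepest red in WT TAC replicate 7, at 20.3 and 15.2 CPM.

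Deviations of log2(CPM + 0.5) from the group means correlated positively in 31 of the 36 gene pairs over the 14 libraries. Pearson r had a median of 0.43 and a range of -0.567 to 0.88, and 3 pairs passed after adjustment. The same values over pairs of all genes were not computed, so nothing here is shown to be particular to the members. Serping1 and C3ar1 had the highest value (Pearson r = 0.88, permutation p = 0.0034, adjusted over the 36 pairs p = 0.041; Spearman rho = 0.745, permutation p = 0.012, adjusted p = 0.14). Without the 2 libraries farthest from the Serping1 median, their r was 0.616. C4b and Cfd had r = 0.877 (permutation p = 0.00042, adjusted p = 0.015), rho = 0.864 (permutation p = 0.0014, adjusted p = 0.049) and r = 0.814 without 2 libraries, on Cfd counts of only 1 to 17. The pair C4b and C1ra had r = 0.757 (permutation p = 0.0030, adjusted p = 0.041), rho = 0.587 (permutation p = 0.036, adjusted p = 0.21) and r = 0.618 without 2 libraries. For C7, r lay between -0.567 with C5ar1 and 0.475 with C3, and none of its pairs passed after adjustment. These values depended on few libraries. Without the 2 libraries farthest from the C7 median, r with Cfd, C1s1, C1ra, Serping1, C3ar1 and C5ar1 lay between 0.115 (C5ar1) and 0.683 (C3ar1). With C3, rho was 0.714 (permutation p = 0.026, adjusted p = 0.18).

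The genes most like each member in these deviations, among the 15876 tested, are given as a description with no test, since the highest of so many values is high by choice. For Serping1 they were Islr and Mmp2, both at r = 0.969, and Mmp2 is also 1 of the fibroblast markers below. For C7 they were Ppat (r = 0.957) and Arc (0.939), and for C5ar1 Fcgr4 (0.95) and Pla2g7 (0.937). For C3ar1 they were Ogn and Brap, both at 0.927, for C4b Ogfr (0.953) and Gm5470 (0.938), and for C3 Xcr1 (0.931) and 2310001K24Rik (0.898). C1ra was nearest to Igfbp4 (0.921) and Rps27a (0.919), C1s1 to Rin2 (0.923) and Cd83 (0.921), and Cfd to Gm21399 (0.881) and C4b (0.877).

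Fibroblast and macrophage markers moved with KO against WT after TAC and with TAC against sham in WT. In bulk tissue fewer cells of a type and less RNA per cell cannot be told apart. The summed level of 9 fibroblast markers, of which Dcn is the most abundant and none was at 0, was 1387 to 1716 CPM in KO TAC, 1336 to 1537 in KO sham, 1720 to 2902 in WT TAC and 1483 to 1495 in WT sham. Of these 9, 7 were lower in KO than in WT after TAC and 6 were higher after TAC than after sham in WT. The summed level of 9 macrophage markers, led by Csf1r, was 166 to 209 CPM in KO TAC, 165 to 176 in KO sham, 192 to 322 in WT TAC and 162 to 168 in WT sham. Of these 9, 5 were lower in KO than in WT after TAC and 7 were higher after TAC than after sham in WT. Of all genes, 5.63% passed as lower in the first of these comparisons and 6.36% as higher in the second. In the fit without the library labelled WT TAC replicate 1, 8 fibroblast and 7 macrophage markers were lower in KO after TAC, and 7 of each were higher after TAC in WT. Of all 15880 genes in that fit, 1589 were lower in the first comparison and 1469 higher in the second. In TAC against sham in KO, where C7 was called, 1 marker of each list was called, as lower (Scara5 and Cd163), where 1.73% of all genes were. The median log2 fold changes of the lists were 0.02 and 0.21. With that library left out, the calls in this comparison were Lum and Cd248 as higher among fibroblast markers, and Cd68 as higher and Cd163 as lower among macrophage markers. Of all 15880 genes, 455 were then called as higher and 387 as lower.

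Set against these sums, Serping1 amounted to 11.3 to 11.8% of the fibroblast sum in KO TAC and 11.3 to 13.4% in WT TAC, and C1ra to 1.20 to 1.37% and 0.947 to 1.56%, so that both pairs of ranges overlapped. C7 amounted to 0.989 to 1.26% of the fibroblast sum in KO TAC, 2.09 to 2.39% in KO sham, 0.945 to 2.16% in WT TAC and 3.96 to 4.08% in WT sham, with the 2 sham groups apart and the 2 TAC groups overlapping. C3ar1 amounted to 3.67 to 4.79% of the macrophage sum in KO TAC and 4.12 to 7.07% in WT TAC, which overlapped, as did C5ar1 at 3.22 to 3.98% in KO TAC and 2.48 to 5.28% in WT TAC. C4b and C3 did not overlap on this scale, with 1.94 to 2.30% of the fibroblast sum in KO TAC and 1.05 to 1.72% in WT TAC for C4b, and 9.21 to 12.1% in KO TAC and 4.46 to 8.76% in WT TAC for C3. C1s1 amounted to 1.54 to 2.35% in KO TAC and 1.16 to 1.88% in WT TAC, which overlapped. The part of these markers in the results was not tested.

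Markers of neutrophils, which also carry C5ar1, summed to 12.8 to 20.1 CPM in KO TAC, 18.7 to 23.1 in KO sham, 9.77 to 50.8 in WT TAC and 10.6 to 11.1 in WT sham. Immediate early genes, which respond quickly to many stimuli, summed to 168 to 220 CPM in KO TAC, 71.8 to 77.2 in KO sham, 103 to 131 in WT TAC and 88.1 to 89.2 in WT sham, so that KO TAC stood above the other groups. In edgeR 4 of these 6 genes were higher in KO than in WT after TAC, 5 after TAC than after sham in KO and 1 in WT. Of all 15876 genes, 589, 374 and 1009 were called as higher in these comparisons. Mesothelial markers, led by Wt1, summed to 13.3 to 18.6 CPM in KO TAC, 8.77 to 8.94 in KO sham, 5.87 to 14.2 in WT TAC and 6.90 to 9.60 in WT sham. In the lists for resident cells of other types and for liver, single markers were called, namely Upk3b (mesothelium), Egfl7 (endothelium), Tnni3 (cardiomyocyte) and Apoa2 (hepatocyte) as higher in KO than in WT after TAC, and the cardiomyocyte marker Pln as lower after TAC than after sham in KO and, with Ryr2, in WT. With the library labelled WT TAC replicate 1 left out, Wt1 (mesothelium), Cdh5 (endothelium), Acta2 (mural cells), and Myl2 and Pln (cardiomyocyte) were also called as higher in KO after TAC. Their part in the results was likewise not tested.

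Of 51 other complement genes, 37 passed the filter. In WT, 7 of them were higher after TAC than after sham and none lower, where 6.36% of all genes passed as higher and 5.8% as lower. The 4 with the smallest p were C1qa, a chain of C1q (114 ± 22.1 CPM in WT TAC, SD, n = 6, and 66.0 ± 4.11 CPM in WT sham, SD, n = 2), Colec12, Cd55 and Itgam. Colec12, a scavenger receptor of the collectin family, had 64.8 ± 9.70 CPM in WT TAC and 43.5 ± 0.811 CPM in WT sham (log2 fold change 0.58, SE 0.13, edgeR adjusted p = 0.017). Cd55, which speeds the decay of the C3-cleaving enzymes, had 23.5 ± 2.45 CPM in WT TAC and 16.6 ± 0.158 CPM in WT sham (0.50, SE 0.13, edgeR adjusted p = 0.023). Itgam, the alpha chain of an integrin that binds a C3 fragment, had 4.44 ± 1.48 CPM in WT TAC and 1.94 ± 0.156 CPM in WT sham (1.20, SE 0.31, edgeR adjusted p = 0.024). The other 3 were the remaining C1q chains, C1qb and C1qc, and the terminal component C6, named after their values were seen. When the library labelled WT TAC replicate 1 was left out, Itgb2, likewise named after its values were seen, made 8, and C1qa, Colec12, Cd55 and Itgam had log2 fold changes of 0.86, 0.63, 0.49 and 1.23 (edgeR adjusted p = 0.0042, 0.0050, 0.020 and 0.018). In that fit 1469 of all 15880 genes were called as higher. C6 had 3 to 15 counts in WT TAC and 0 in both WT sham libraries, so no fold change is given.

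In KO none of the 37 genes passed between TAC and sham in edgeR, where 4.08% of all genes did. At an unadjusted p under 0.05 there were 6, against 3309 of all 15876 genes. DESeq2 called 0 of the 37 and 1342 of all 14642 genes it tested. For limma voom this was 2 of the 37 and 1898 of 15876. After TAC, 5 of the 37 were lower and 1 higher in KO than in WT, where 9.34% of all genes passed and 5.63% passed as lower. Cd55 had 15.5 ± 1.94 CPM in KO TAC (SD, n = 4) and 23.5 ± 2.45 CPM in WT TAC (SD, n = 6), a log2 fold change of -0.59 (SE 0.10, edgeR adjusted p = 0.0033), with no overlap. Colec12 had 44.8 ± 4.48 CPM in KO TAC and 64.8 ± 9.70 CPM in WT TAC (-0.53, SE 0.10, adjusted p = 0.0083), also with no overlap.

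C1qbp, a largely mitochondrial protein that binds C1q, was the 1 gene that was higher, with 152 ± 9.10 CPM in KO TAC and 114 ± 15.7 CPM in WT TAC (0.41, SE 0.09, edgeR adjusted p = 0.017). Thbd and C1qa, which were also lower, fall outside the naming rule for this comparison and were named after their values were seen. When the library labelled WT TAC replicate 1 was left out, 9 were lower and 3 higher, and Cd55, Colec12 and C1qbp had log2 fold changes of -0.59, -0.59 and 0.48 (edgeR adjusted p = 0.0017, 0.00079 and 0.00078). In that fit 1589 of all 15880 genes were called as lower and 1350 as higher. Over all 14 libraries, the median log2 fold change of the 37 genes was -0.17 in KO against WT after TAC and 0.03 in TAC against sham in KO. It was 0.25 in TAC against sham in WT and 0.07 in KO against WT after sham. Fitted over all 14 libraries, none of the 37 passed in edgeR, DESeq2 or limma voom between the sham groups or in the interaction, where 3 and 6 had an unadjusted edgeR p under 0.05. With only the sham libraries in the edgeR fit, 3 of the 32 tested passed between the sham groups, against 1158 of all 14751 genes. With only the KO libraries 4 of 33 passed between TAC and sham, against 1458 of all 15324 genes.

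Clu, the gene of clusterin, an inhibitor of the terminal complex that was picked out for its wide spread after its values were seen, had 1211, 789, 538 and 498 CPM in KO TAC, 341 and 376 in KO sham, a lowest, median and highest of 632, 1991 and 5875 in WT TAC, and 607 and 503 in WT sham. Its highest value came from WT TAC replicate 7, as did those of Serping1, C3ar1 and C5ar1. It was not called after TAC between KO and WT (-1.61, SE 0.60, edgeR adjusted p = 0.11), but it was called without the library labelled WT TAC replicate 1.

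**Figure D4:**
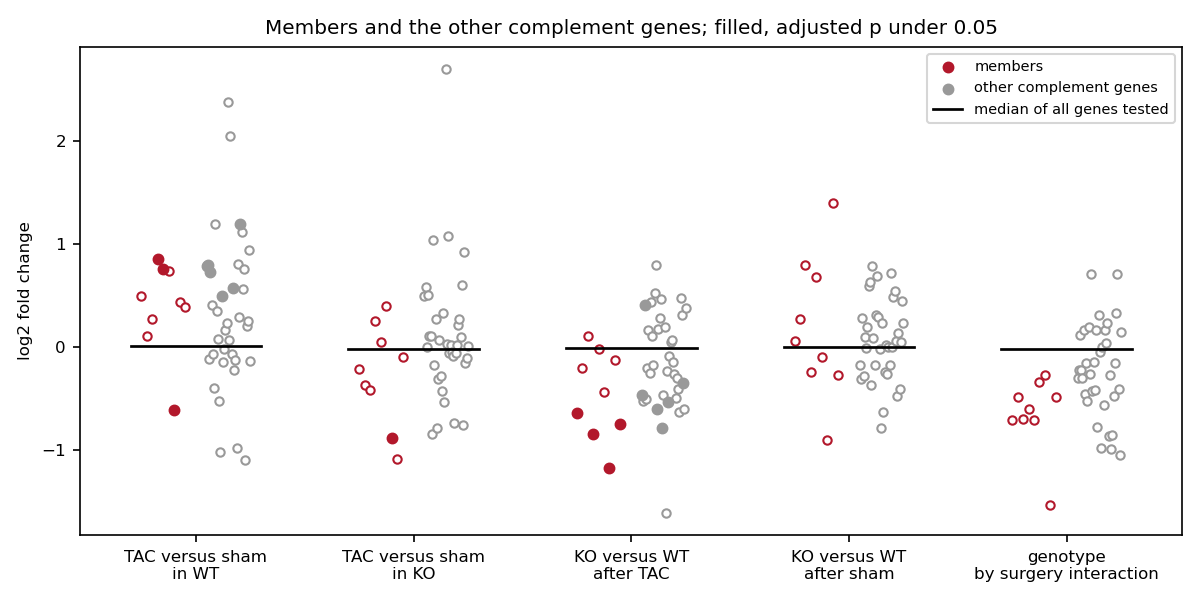
Log2 fold change (vertical axis) of the 9 genes (red) and of the other complement genes that passed the filter (grey, without C6, whose WT sham counts were 0) in each comparison (horizontal axis); filled points have an edgeR adjusted p under 0.05, and black lines are the medians of all genes tested. In KO against WT after TAC all 4 filled red points lie below the black line at -0.01, and in the interaction all 9 red points lie below 0.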

How the data were processed

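Polyadenylated RNA of ventricular tissue was sequenced, and the authors deposited a table of raw counts per gene in whole numbers, without normalization, per the file headers. Per the submitters' processing notes, FastQC, HISAT2 2.1.0, featureCounts and edgeR were used with the genome build GRCm38. The sources used here do not state the settings, the annotation or whether strand was used in counting. Positions and transcript sequence came from GENCODE M21, which held 54409 of the 54532 gene IDs, and promoters from RefSeq on GRCm38.p6, which gave a window for 7 of the 9 genes.

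Groups came from the labels, and the number of libraries in each equals the number of mice in the design text. The 4 group means were fitted over all 14 libraries with edgeR 4.0.16 in R 4.3.3 (filterByExpr, TMM, robust glmQLFit), tested with glmQLFTest in 5 comparisons and adjusted by Benjamini-Hochberg over all genes, with a threshold of 0.05. An SE is the size of the log2 fold change divided by the square root of F. A fold in times is 2 to the power of the log2 fold change. Alternatives used DESeq2 1.42.0, limma 3.58.1, other filters and scaling, and fits without each library. Correlations used 100000 permutations of libraries within groups.

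The 9 genes and all gene lists were chosen with earlier results of these data known. The named genes are the 9 members, up to 4 called genes per comparison with the smallest p among the other complement genes, the 2 genes most like each member, and Ccl24. A result for 1 gene that this rule takes is not reported here. Of 13 marker lists, those whose summed levels are not given by group in the text reached 33.6 CPM for monocyte, 31.1 for adipocyte, 13.2 for hepatocyte, 12.9 for atrium, 4.58 for lymphocyte, 1170 for endothelium and 1935 for mural markers. All library pairs of a group differed by more than sampling noise (chi-square per degree of freedom 4.55 to 176). Intervals cover counting error and spread between these libraries only. The fit was tested on simulated counts with 200 changed genes.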

Additional observations from a re-analysis of the deposited data

How the results depend on the processing

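Of the 9 genes, 3 were called in TAC against sham in WT. That count was 6 in limma voom with sample weights, 1 with only the groups compared in the fit, 0 with the replicate number as a block, and 0 to 5 when 1 library was left out. In TAC against sham in KO, 1 was called, and 0 to 1 when 1 library was left out. In KO against WT after TAC, 4 were called, 1 under the replicate block (C7, while Serping1 had an adjusted p of 0.12) and 2 to 4 when 1 library was left out. Between the sham groups 0 were called, against 1 in DESeq2, 2 in limma voom, 3 with only the sham groups in the fit and 0 to 1 when 1 library was left out. The interaction gave 0 of the 9 genes in all 21 fits that included it besides the reported one. No call changed its direction under the alternatives run. RLE scaling, a filter of at least 1 CPM in 4 libraries and leaving out mitochondrially encoded genes kept the count of the 9 genes in each comparison, and no filter on low counts gave 2 in TAC against sham in WT.

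Over all genes, KO against WT after TAC gave 1483 calls, 4587 in limma voom, 2351 in DESeq2, 783 with only the groups compared and 45 under the block. When 1 library was left out it gave 302 calls (without KO TAC replicate 5) to 2939. TAC against sham in WT gave 1930 calls, 5730 in limma voom, 736 with only the groups compared and 22 under the block, with 0 (without WT sham replicate 2) to 2756 when 1 library was left out. TAC against sham in KO gave 648 calls, 1898 in limma voom, 1342 in DESeq2, 1458 with only the groups compared and 367 under the block, with 1 (without KO sham replicate 1) to 1361 when 1 library was left out. The sham groups gave 20 calls, 705 in limma voom, 147 in DESeq2, 1158 with only the groups compared, 44 with no filter and 13 under the block, with 3 to 79 when 1 library was left out. Libraries with the same replicate number had r from -0.244 to 0.108 (13 pairs), and those with different numbers from -0.33 to 0.399. Deviations in a group of 2 mirror each other, so few of these values are independent. Whether the numbers pair the samples was not settled by them. Numbers 3, 6 and 7 occurred only in WT TAC and 5 only in KO TAC, so under the block those libraries do not enter the fold changes. The cause of the lost calls was not tested. With 2 libraries in each sham group, each comparison that uses them rests mostly on the spread of the TAC groups in the fit over all 14 libraries.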
